A study of Mus musculus with 43 samples.

Results

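Fragments of valine tRNAs were followed through the male reproductive tract of mice lacking the Rnase9-12 gene cluster. Valine tRNA reads the valine codons of mRNA, and mice use the isoacceptors tRNA-Val-AAC, tRNA-Val-CAC and tRNA-Val-TAC, named by their anticodons, which come in near-identical isodecoders. When such a tRNA is cut, usually at or near its anticodon loop, it leaves tRNA fragments (tRFs). 5′ tRFs keep the start of the tRNA, 3′ tRFs keep its end, and the remaining fragments are listed as other tRFs. 5′ tRFs of valine, glycine and glutamate tRNAs are known as abundant small RNAs of the epididymis, its luminal fluid and mature sperm.

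The valine tRFs were taken as every counted feature whose name begins with tRNA-Val and ends with the 5′, 3′ or other fragment type. There were 36 such features among the 4890 counted in tissue, 39 among the 3178 in fluid and 39 among the 4323 in sperm, where tRNAs of every kind had 651, 645 and 654 tRF features. They belonged to 12 isodecoders in tissue and 13 in fluid and in sperm. tRNA-Val-AAC had 15 features in tissue and 18 in fluid and in sperm, tRNA-Val-CAC had 18 everywhere, and tRNA-Val-TAC had 3 everywhere, all from a single isodecoder. They are written Val-AAC, Val-CAC and Val-TAC from here on. In fluid and in sperm 3 of them were at 0 in every library, and 35, 33 and 31 features passed the filter on low counts in tissue, fluid and sperm.

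The study compared WT mice with Rnase9-12 KO mice, all of the FVB strain and 8 to 12 weeks old. KO mice carried a CRISPR deletion of the whole cluster in every cell, so the 4 genes cannot be told apart in what follows. There were 43 small RNA libraries. Epididymis tissue gave 3 WT and 3 KO libraries for the caput, 3 and 2 for the corpus and 3 and 3 for the cauda, made by ARM-seq, which removes methyl groups that stop reverse transcription on tRNAs. Fluid gave 3 libraries per genotype for each of these segments and cauda sperm gave 4 per genotype, all made by OTTR-seq, a template-jumping protocol for end-to-end copies of small RNAs. Each fluid or sperm library held the RNA of 3 mice, and fluid had been freed of sperm, vesicles and debris by centrifugation.

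Library depth, as summed counts, was 30142156 to 249732714 for tissue, 1948718 to 12320922 for fluid and 1134840 to 62128314 for sperm. The section entry of 1 WT caput tissue library and of all 6 caput fluid libraries names the cauda whereas the titles name the caput, and these libraries were grouped by title. Transcripts of the deleted genes were not analysed here. Epithelial markers, the 5 listed miRNAs of the miR-200 family, were present in every tissue library, and germ cell markers stood at 0.0382 to 0.278 CPM in WT and 0.220 to 0.462 CPM in KO cauda tissue. In sperm the germ cell markers reached 17.9 to 47.0 CPM in WT and 30.2 to 43.2 CPM in KO libraries, beside 6.24 to 23.9 and 16.3 to 23.3 CPM of epithelial miRNAs. Because these are bulk RNA samples, fewer cells of a type and less RNA per cell cannot be told apart.

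The geometry of the fragments is easiest to see on one mature-length tRNA. RefSeq lists 22 valine tRNA genes in the mouse (GRCm38.p6), 8 with anticodon AAC, 11 with CAC and 3 with TAC, and 10 of the 22 lie on chromosome 13. The RefSeq gene n-TVcac9, a Val-CAC gene at chr13:23446142-23446214 on the minus strand, inside the promoter window of Gm46404, is given here as genomic sequence, without the CCA tail of the mature tRNA. Capitals mark the anticodon, at bases 34 to 36 of 73. The 33 bases before it are the side kept by 5′ tRFs cut there, and the bases after it are the side kept by 3′ tRFs.

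n-TVcac9: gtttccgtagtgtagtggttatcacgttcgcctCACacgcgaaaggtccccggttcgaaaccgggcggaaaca

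A read that matched several isodecoders equally well was taken to have been counted on each of them, so the features share reads. This rests on the near-equal counts below and on the paper extracting best mappings, with exceptions. The paper also describes restricting tRNA counts to reads specific for acceptor type and anticodon. The near-equal Val-AAC and Val-CAC counts do not reflect that. Val-AAC and Val-CAC could hardly be separated in their 5′ and 3′ tRFs. Taking the most counted isodecoder of each, the Val-AAC count was a median of 98.8% of the Val-CAC count for 5′ tRFs and 99.7% for 3′ tRFs in tissue. The corresponding medians were 93.8% and 99.5% in fluid and 88.7% and 99.4% in sperm. Other tRFs were less alike in tissue and fluid, with medians of 74.2% and 82.2%, and had 92.8% in sperm. Log2 levels of both anticodons ran in parallel over libraries, with a Pearson correlation of 0.999 over 17 tissue libraries, 0.982 over 18 fluid libraries and 0.998 over 8 sperm libraries. Val-TAC followed Val-AAC less closely, at 0.46, 0.75 and 0.93 (Pearson, the same libraries). All further values are sums over isodecoders, in which a read counts on each feature it matched, and results for Val-AAC and Val-CAC should be read as largely a single measurement.

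Levels are given as CPM, a library's counts divided by its total after rescaling by the TMM method and multiplied by 1e6. With this rescaling the CPM of a dominant class can exceed its share of the raw counts. As each read is counted whole, no correction for length applies, and since the 3 tables were scaled separately, levels are not compared between tissue, fluid and sperm. Values are mean ± SD over libraries.

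Valine tRFs were 2209 ± 403 CPM in WT caput tissue (SD, n = 3), 2195 ± 448 in WT corpus (SD, n = 3) and 1838 ± 310.3 in WT cauda (SD, n = 3). In tissue Val-AAC contributed 53.3% to 54.4% of valine tRF counts as group means, Val-CAC 40.4% to 41.9% and Val-TAC 3.70% to 6.30%. Val-TAC carried more weight in fluid, with group means of 7.16% to 17.0%, and again little in sperm, at 3.97% in WT and 3.61% in KO. These shares depended on reads being counted on several isodecoders, as Val-TAC had only 1. In the most counted isodecoders, 5′ tRF counts summed over tissue libraries were 300528 for Val-AAC, 311421 for Val-CAC and 29281 for Val-TAC. For 3′ tRFs they were 412396, 414792 and 165700. Over fluid libraries they were 1945635, 2075336 and 204459 for 5′ tRFs and 804778, 813497 and 882313 for 3′ tRFs.

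**Figure D1:**
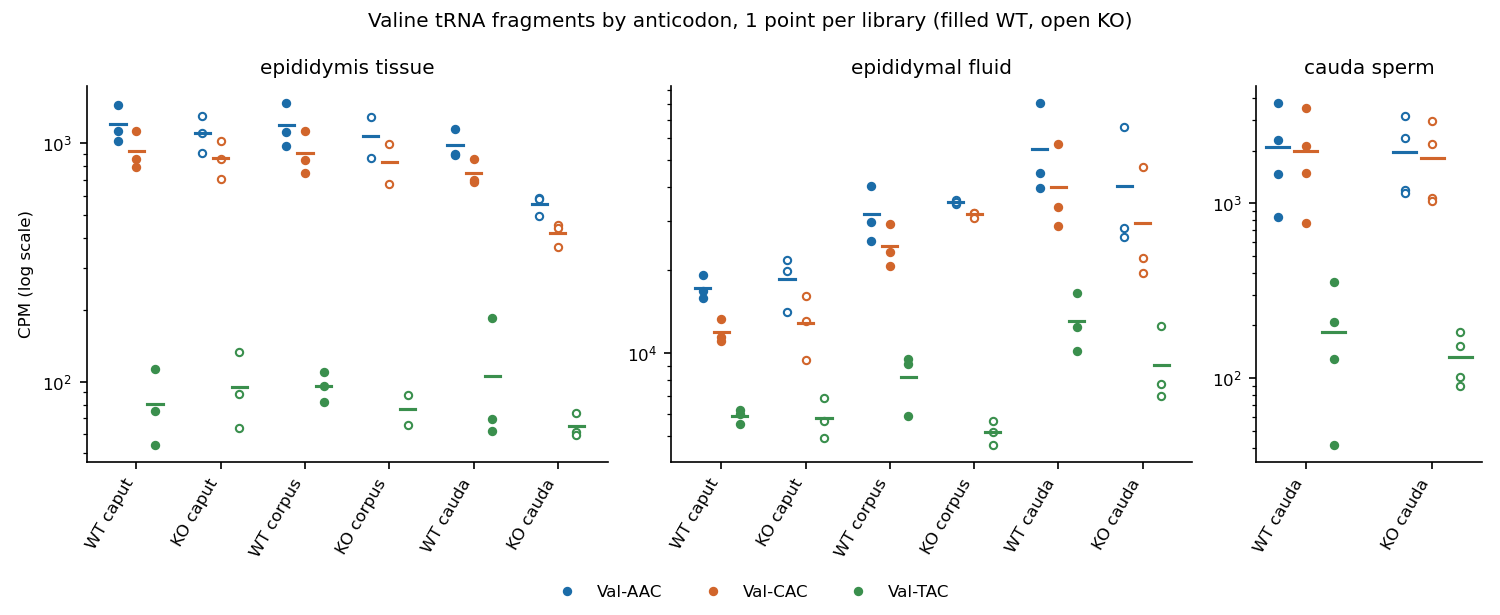
CPM of the 3 valine anticodon totals in each library (log axis), by segment, for tissue, fluid and sperm, with filled points for WT and open points for KO. As sums over isodecoders, Val-AAC and Val-CAC lie close together in every group, and Val-TAC lies lowest, with group means of 64.9 to 105 CPM in tissue.

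The 3 fragment types were present in very different proportions in the 3 materials. As tissue was sequenced by ARM-seq and fluid and sperm by OTTR-seq, material and protocol cannot be told apart between tissue and the others. In tissue, 5′ and 3′ tRFs were nearly balanced, at 41.2% and 54.7% of valine tRF counts in WT caput, 46.0% and 50.5% in WT corpus and 40.9% and 55.4% in WT cauda, and other tRFs made up 2.83% to 4.32% in single libraries. The remaining tRNAs looked different there, with 5′ tRFs at 9.37% to 18.6% and other tRFs at 31.6% to 40.2% of their counts as group means. WT fluid held 46.0% 5′ tRFs in caput, 63.6% in corpus and 59.9% in cauda. In WT sperm the largest type in the sums was the other tRFs, at 51.4%, followed by 5′ tRFs at 40.1% and 3′ tRFs at 8.44%. That order depended on reads being counted on several isodecoders. In the most counted isodecoders, 5′ tRFs exceeded other tRFs as WT sperm means. They were at 368 and 321 CPM for Val-AAC-1, 440 and 348 CPM for Val-CAC-2, and 81.7 and 34.6 CPM for Val-TAC-1.

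Sperm valine tRFs held more 5′ fragments than the sperm tRFs of other tRNAs did. Single sperm libraries ranged from 35.4% to 51.9% for valine and from 10.3% to 25.4% for other tRNAs, without overlap. In its fragment types Val-TAC departed from Val-AAC and Val-CAC in each material. It was not compared with single anticodons outside valine. Its 3′ tRFs made up 61.6% to 83.4% of its counts in tissue and 84.9%, 78.5% and 77.5% in WT caput, corpus and cauda fluid, all as group means. In WT sperm its counts were split into 45.2% 5′, 35.4% 3′ and 19.4% other tRFs. There 5′ tRFs made up 38.9% of Val-AAC and 41.0% of Val-CAC counts, and 3′ tRFs 8.71% and 5.88%.

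**Figure D2:**
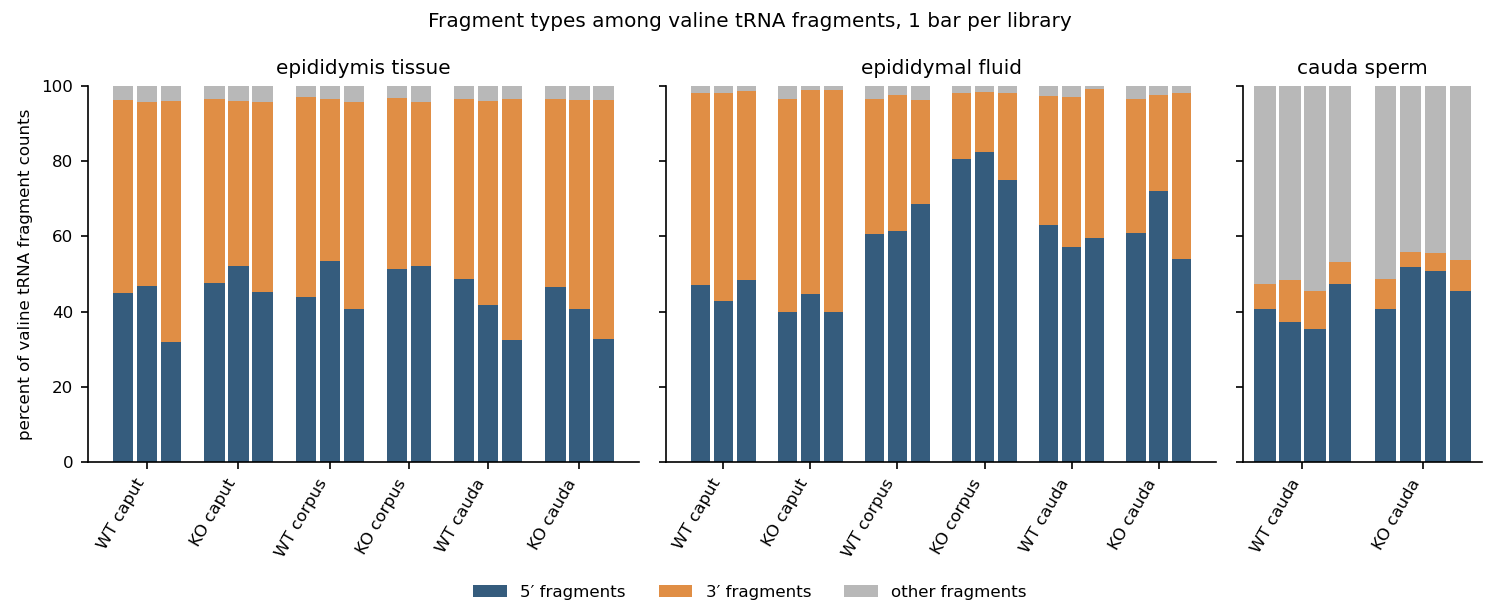
Share of 5′, 3′ and other tRFs in the valine tRF counts (percent), as a stacked bar for each library, by segment and genotype, for tissue, fluid and sperm. Colours mark the fragment types. Other tRFs, at the top of each bar, reach at most 4.32% in tissue and are at 51.4% on average in WT sperm, as sums over isodecoders.

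The first comparison asked whether loss of Rnase9-12 altered valine tRFs in epididymis tissue. In the cauda, valine tRFs stood at 1656, 1661 and 2196 CPM in WT and at 1103, 1083 and 939 CPM in KO libraries. All 3 KO libraries lay below all 3 WT libraries. The difference did not pass the threshold after adjustment over all features in edgeR (log2 fold change −0.82, SE 0.27, adjusted p = 0.221, quasi-likelihood test with Benjamini-Hochberg adjustment), nor with the replicate number as a block (−0.82, SE 0.25, edgeR adjusted p = 0.0529). DESeq2 called it lower (−1.17, DESeq2 adjusted p = 0.00338). tRFs of all tRNAs together had a log2 fold change of −0.59 (SE 0.29, edgeR adjusted p = 0.447). For them the replicate block gave −0.58 (edgeR adjusted p = 0.0938) and DESeq2 −0.91 (DESeq2 adjusted p = 0.127). Valine took 7.60% of all tRF counts in WT and 6.66% in KO cauda tissue as group means. The groups overlapped in that share (2-sided exact permutation p = 0.6).

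Each anticodon and fragment type in the cauda pointed the same way. Val-AAC 5′ tRFs were at 422, 364 and 362 CPM in WT and at 272, 233 and 159.6 CPM in KO libraries. Val-AAC 3′ tRFs were at 447, 511 and 763 CPM in WT and at 299, 335 and 322 CPM in KO libraries. Val-AAC other tRFs, far scarcer, were at 23.04, 27.7 and 27.9 CPM in WT and at 15.4, 14.7 and 13.9 CPM in KO libraries. For each of these types every KO value lay under every WT value, with log2 fold changes of −0.79 (SE 0.33), −0.85 (SE 0.27) and −0.84 (SE 0.27) and edgeR adjusted p of 0.309, 0.196 and 0.196.

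Val-CAC, which shares most of these reads, gave log2 fold changes of −0.83 for 5′, 3′ and other tRFs alike. Val-TAC 5′ tRFs were at 11.1, 12.4 and 11.2 CPM in WT and at 6.92, 8.80 and 5.07 CPM in KO libraries, again without overlap (−0.74, SE 0.37, edgeR adjusted p = 0.434). Its 3′ tRFs did overlap, at 45.3, 51.9 and 167 CPM in WT and 50.2, 46.9 and 66.0 CPM in KO libraries. Their log2 fold change of −0.70 (SE 0.52) rested on the high WT replicate 3. Replicate 3 was highest for this sum in every tissue group that had one, at 91.9 CPM in WT caput, 106 in KO caput and 91.1 in WT corpus. KO corpus tissue had no replicate 3. With the replicate block the cauda value was −0.46 (SE 0.29). Of the 9 sums, 8 had every KO library below every WT library, a state in which 34.5% of tRF features of all tRNAs and 10.1% of all features also were. edgeR called 0 of the 9 past the thresholds of an adjusted p under 0.05 and a log2 fold change beyond 1, whereas DESeq2 called 6 lower, all of Val-AAC and Val-CAC, against 1.5% of all sums and features.

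Among single features in cauda tissue, 0 of 35 passed those thresholds, against 0.831% of all features called lower. Each of the 35 log2 fold changes was negative, from −1.73 to −0.23 with a median of −0.86, beside a median of −0.56 for the 606 tested tRF features of all tRNAs and 0.12 for all features. Of the 35, 26 were lower at an unadjusted p under 0.05, compared with 170 of the 606 tRF features and 7.37% of all features. KO and WT libraries did not overlap, with KO lower, for 30 of the 35, compared with 34.5% of tRF features and 10.1% of all features. Because isodecoders share reads, the 35 are not separate measurements. When the replicate number was used as a block, 6 of the 35 were called lower, against 3.56% of all features, and DESeq2 called 7, against 2.17%.

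The feature with the largest difference, named after its values were seen, was the 5′ tRF of isodecoder Val-AAC-4, at 5.81, 6.76 and 5.86 CPM in WT and 1.91, 2.27 and 1.38 CPM in KO libraries (−1.73, SE 0.41, edgeR adjusted p = 0.0653). For scale, Gly-GCC 5′ tRFs, abundant in the epididymis, had a log2 fold change of −1.23 in cauda tissue (SE 0.73, edgeR adjusted p = 0.537), which was called with the replicate block (−1.13, SE 0.27, edgeR adjusted p = 0.0141), and Glu-CTC 5′ tRFs one of −0.57 (SE 0.71, adjusted p = 0.800). Smooth muscle markers summed to 108 to 215 CPM in WT and 107 to 140 CPM in KO cauda tissue, epithelial markers to 8.67 to 15.7 and 7.79 to 13.1 CPM, and the endothelial marker Mir126a stood at 0.840 to 1.10 and 0.396 to 0.844 CPM. Their part in the valine values was not tested.

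Caput and corpus tissue showed no such separation. In the caput, valine tRFs were at 2655, 1873 and 2099 CPM in WT and at 1689.8, 2419 and 2099 CPM in KO libraries (log2 fold change −0.09, SE 0.27, edgeR adjusted p = 0.9997). In the corpus they were at 2052, 2697 and 1835 CPM in WT and at 2369.6 and 1609 CPM in KO libraries (−0.14, SE 0.30, edgeR adjusted p = 0.898). WT and KO libraries overlapped in both segments, and the log2 fold changes of the 9 sums lay between −0.42 and 0.38 in caput and between −0.39 and 0.00 in corpus. The count of features called was 0 of 35 in each, with 0% of all features called in either direction by edgeR, and 0 of the 35 reached an unadjusted p under 0.05. DESeq2 also called 0 in each. The difference between the KO effects in cauda and caput was not past the threshold for the valine total (interaction −0.72, SE 0.38, edgeR adjusted p = 0.999).

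**Figure D3:**
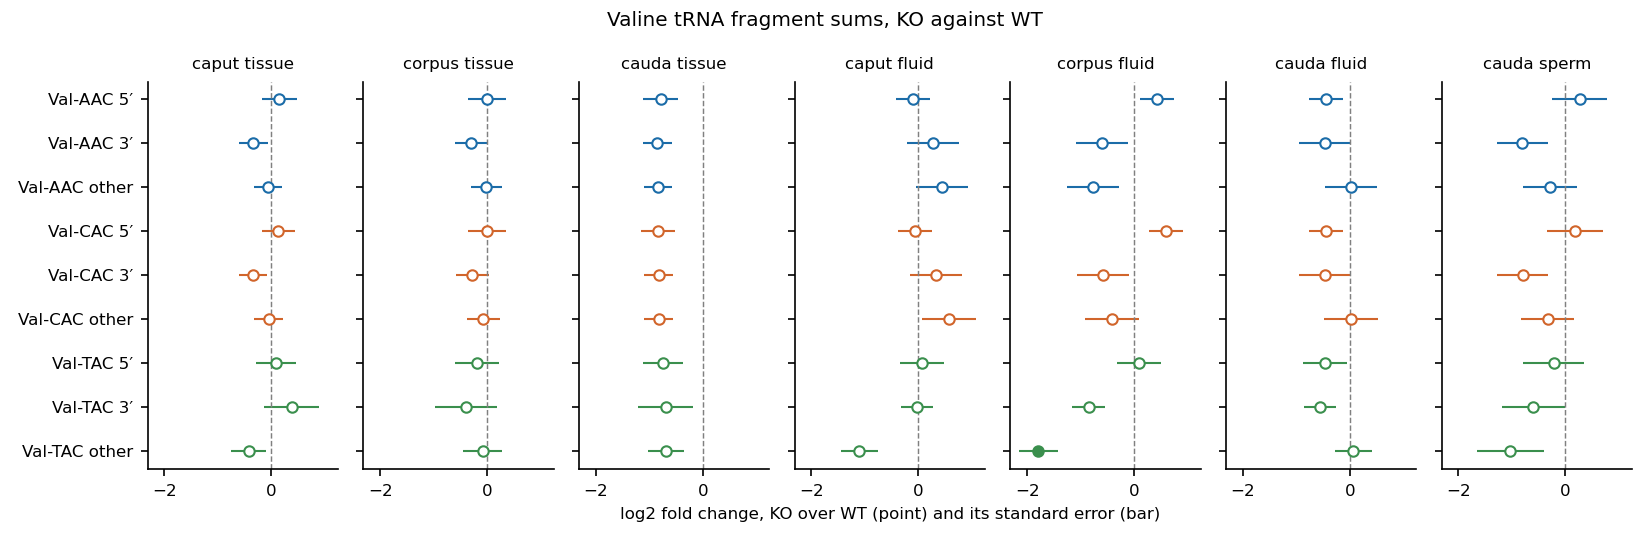
Log2 fold change of KO over WT, with its SE, for the 9 valine sums in each of the 7 comparisons. A filled marker is past both thresholds, which holds for Val-TAC other tRFs in corpus fluid, at −1.79, and all 9 values in cauda tissue lie below 0.

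In fluid the corpus was where the make-up of valine tRFs differed. The total was similar, at 78573, 62715 and 52188 CPM in WT and 73351, 71589 and 72032 CPM in KO libraries (log2 fold change 0.17, SE 0.32, edgeR adjusted p = 0.795). Beneath that total, 3′ and other tRFs were lower in KO on average, and 5′ tRFs of Val-AAC and Val-CAC were higher, although TMM factors computed without tRFs, tRNAs and rRNA fragments turned these to log2 fold changes of −0.48 and −0.30.

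Val-AAC 5′ tRFs were at 25226, 19528 and 18307 CPM in WT and at 29341, 28855 and 26346 CPM in KO corpus fluid. Val-CAC 5′ tRFs were at 20824, 17539.6 and 16427 CPM in WT and at 28411, 28822 and 25787 CPM in KO. The KO libraries lay above the WT libraries in both, and neither difference passed the test, with log2 fold changes of 0.42 (SE 0.32, edgeR adjusted p = 0.376) and 0.60 (SE 0.32, edgeR adjusted p = 0.191). The direction again turned negative with factors from other RNAs, and leaving out 1 library moved the values to between 0.131 and 0.564 for Val-AAC and between 0.335 and 0.694 for Val-CAC, lowest without WT replicate 3. Glu-CTC 5′ tRFs had a log2 fold change of 0.72 (SE 0.32, edgeR adjusted p = 0.117) and Gly-GCC 5′ tRFs of 0.33 in the same contrast.

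Val-AAC 3′ tRFs went from 14012, 9859.6 and 6489.7 CPM in WT to 6049, 5422 and 8525 CPM in KO, with KO replicate 3 inside the WT range (−0.60, SE 0.49, edgeR adjusted p = 0.417). Val-TAC 3′ tRFs were at 6984, 7843 and 4530.0 CPM in WT and at 3696, 3272 and 3759 CPM in KO, each KO library below each WT library. Their log2 fold change of −0.85 (SE 0.30, edgeR adjusted p = 0.0483) passed the adjusted p but not the fold threshold.

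Val-TAC other tRFs fell in KO corpus fluid. They were at 452, 247 and 261 CPM in WT and at 104, 72.1 and 101 CPM in KO libraries, so that the highest KO library was well below the lowest WT library. The log2 fold change was −1.79 (SE 0.36, edgeR adjusted p = 0.00177), and this was the one valine sum of 9 called lower, against 3.29% of all sums and features tested with them. The call held under each of the other scalings, filters and tools tried and without any single library, with values from −2.72 to −1.47. The level is low beside Val-TAC 3′ tRFs of the same tRNA, which were 3576 ± 265 CPM in KO corpus fluid (SD, n = 3).

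At the level of single features, 2 of 33 were called lower in corpus fluid, against 6.23% of all features, and 0 of 33 higher, against 13.5% of all features. The first was the Val-TAC-1 other tRF itself. The second was the 3′ tRF of Val-CAC-4, counted 37, 37 and 15 times in WT and 1, 2 and 2 times in KO libraries, a ratio of 0.145 with a 95% interval of 0.0461 to 0.352 that covers counting error only (−2.75, SE 0.81, edgeR adjusted p = 0.0211). Of the 33 log2 fold changes 25 were negative, with a median of −0.51 against 0.10 for all features. Depth and cell markers also differed between these groups. Summed counts were 3989262 to 10172577 in WT and 1948718 to 3373869 in KO corpus fluid, epithelial miRNAs summed to 27.1 to 62.6 and 87.5 to 134 CPM, and germ cell miRNAs to 3.58 to 9.06 and 12.8 to 15.4 CPM. The endothelial marker Mir126a was at 9.41 to 22.4 and 25.7 to 73.8 CPM, and leukocyte miRNAs, which overlapped between the groups, at 12.99 to 17.5 and 16.8 to 70.02 CPM. Their part in the valine result was not tested.

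**Figure D4:**
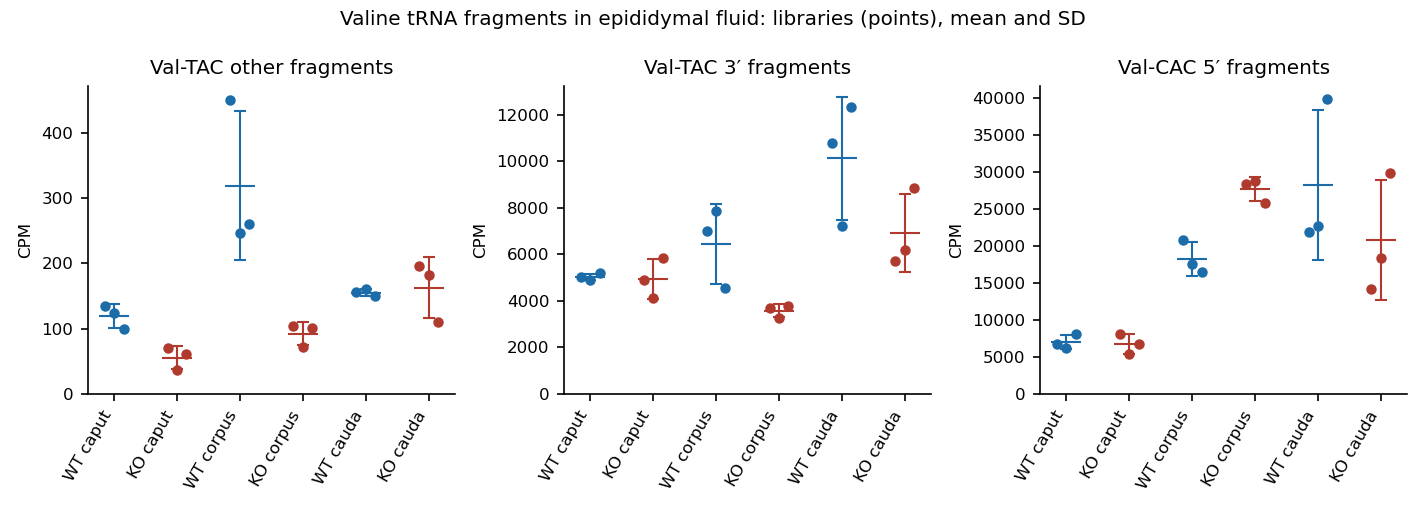
CPM in each fluid library of Val-TAC other, Val-TAC 3′ and Val-CAC 5′ tRFs by segment, WT beside KO, with the mean and SD of each group. In the corpus, Val-TAC other tRFs are at 72.1 to 104 CPM in KO and at 247 to 452 CPM in WT, whereas in the cauda both groups overlap.

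In caput fluid Val-TAC other tRFs were at 135, 125 and 98.8 CPM in WT and at 69.7, 35.8 and 61.3 CPM in KO libraries. The groups did not overlap, and the difference was not called (log2 fold change −1.10, SE 0.35, edgeR adjusted p = 0.234). Epithelial miRNAs summed to 103 to 182 CPM in WT and 241 to 298 CPM in KO caput fluid and leukocyte miRNAs to 6.44 to 9.98 and 11.8 to 17.5 CPM, and their part was not tested. In cauda fluid Val-TAC other tRFs were at 156, 160.1 and 150.3 CPM in WT and at 197, 182 and 109.8 CPM in KO libraries. KO lay on both sides of WT (0.07, SE 0.35, edgeR adjusted p = 0.974). The KO effects in cauda and corpus fluid differed in the interaction test (1.86, SE 0.50, edgeR adjusted p = 0.0280), 1 of 9 valine sums against 1.43% of all sums and features. That call was lost with library totals or without the filter on low counts, and in 8 of 12 fits that left out 1 library.

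The other 8 sums lay between −0.11 and 0.58 in caput fluid and between −0.55 and 0.02 in cauda fluid. KO caput fluid replicate 1 stood apart for the other tRFs, with 501 CPM of Val-AAC against 90.98 and 119.6 CPM in the remaining KO libraries, and 907 CPM of Val-CAC against 139.8 and 193 CPM. Caput fluid totals of valine tRFs were 34438, 32498 and 38408 CPM in WT and 43572, 28504 and 39784 CPM in KO libraries. In cauda fluid they were 80991, 88712 and 154016 CPM in WT and 52839, 58179 and 125653 CPM in KO libraries, where replicate 3 of each group was highest (−0.45, SE 0.32, edgeR adjusted p = 0.705). The value ran from −1.02 without KO replicate 3 to −0.021 without WT replicate 3. edgeR called 0 of 33 features in caput fluid and 0 of 33 in cauda fluid, and 0% of all features in either segment. In each, 2 of the 33 were lower at an unadjusted p under 0.05, and DESeq2 called 0.

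Shares within a library do not depend on a scaling factor. In corpus fluid the 5′ tRFs took 60.7%, 61.4% and 68.7% of valine tRF counts in WT and 80.6%, 82.4% and 74.9% in KO libraries. 3′ tRFs took 35.8%, 36.2% and 27.5% in WT and 17.5%, 16.1% and 23.1% in KO libraries. The KO libraries were all above WT for 5′ tRFs and all below for 3′ tRFs, and other tRFs were likewise lower, at 3.49%, 2.38% and 3.796% against 1.83%, 1.54% and 1.95%. tRFs of other tRNAs shifted in the same direction as group means, 5′ from 45.4% to 57.5%, 3′ from 46.1% to 38.7% and other from 8.52% to 3.72%.

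The shift was seen inside every valine anticodon of corpus fluid. Mean 5′ shares were 66.6% in WT and 79.9% in KO for Val-AAC, 75.3% and 86.8% for Val-CAC, and 17.5% and 29.0% for Val-TAC. Of the 9 fragment-type shares within the 3 anticodons, 9 did not overlap between WT and KO, compared with 46.5% of such shares in 48 other anticodons. The 3 shares of an anticodon add up to the whole, and Val-AAC and Val-CAC share most reads, so the 9 are not independent. Val-TAC itself took a smaller share of valine tRFs, at 11.6%, 15.2% and 11.4% in WT and 7.08%, 6.498% and 7.89% in KO libraries. Valine as a whole took 9.31%, 8.42% and 8.63% of all tRF counts in WT and 9.60%, 10.7% and 11.1% in KO libraries, with KO slightly higher.

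A 2-sided exact permutation test of each share can give no p under 0.1 with 3 libraries a group, so it cannot reach 0.05. Over 112 tests, 16 shares in each of the 7 comparisons, the smallest adjusted p was 0.512. WT and KO did not overlap in 21 of them. Of these, 15 were in corpus fluid, where 46.5% of the type shares of other anticodons did not overlap either. Caput tissue had 3 and caput fluid 2, each among 9 type shares within the anticodons, against 5.56% and 29.9% of such shares in other anticodons, and corpus tissue had 1. In caput fluid these were 3′ tRFs of Val-CAC and other tRFs of Val-TAC, the latter at 2.02% in WT and 0.949% in KO.

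Along the epididymis, fluid and tissue, which also differed in protocol, gave different pictures. WT fluid held 35115 ± 3013 CPM of valine tRFs in caput, 64492 ± 13282 in corpus and 107906 ± 40118 in cauda (SD, n = 3 each). The valine total rose from WT caput to WT cauda fluid by 1.62 on the log2 scale (SE 0.32, edgeR adjusted p = 0.00246), whereas tRFs of all tRNAs together had a log2 fold change of 0.18. Of the 9 sums, 6 were called higher, against 8.63% of all sums and features. 5′ tRFs rose for Val-AAC (1.997, SE 0.33, edgeR adjusted p = 0.000437), Val-CAC (2.002, SE 0.33) and Val-TAC (1.81, SE 0.43), as did other tRFs of Val-AAC and Val-CAC (2.01 and 1.91) and 3′ tRFs of Val-TAC (1.01). 3′ tRFs of Val-AAC and Val-CAC, at 1.26 and 1.21, missed the adjusted p with 0.0674 and 0.0791.

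The same contrast within KO mice uses other libraries. There 5 of 9 sums were called higher, against 9.25% of all sums and features, with 1.65 for Val-AAC 5′, 1.63 for Val-CAC 5′ and 1.27 for Val-TAC 5′ tRFs, and the total rose by 1.08 (SE 0.32, edgeR adjusted p = 0.0225). The count was 3 without KO caput replicate 2, KO caput replicate 3 or KO cauda replicate 3. Between caput and corpus fluid, 5 of 9 were called higher in WT, against 6.58%, and 2 of 9 in KO, against 12.4%. The WT count was 3 without WT corpus replicate 1, and the KO count 4 without KO caput replicate 1. The 2 in KO were the 5′ tRFs of Val-AAC (1.86) and Val-CAC (2.04), which stood at 1.33 and 1.37 in WT. These contrasts share the caput libraries of their genotype with the contrasts of cauda and caput. As all caput fluid libraries carry the conflicting section entry, every contrast with caput fluid rests on the titles.

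Tissue did not show that gradient. In WT, 0 of 9 sums were called lower in cauda than in caput, against 6.4% of all sums and features, and values lay between −0.85 and 0.73. In KO, 6 of 9 were called lower, against 4.55%, with −1.27 for Val-AAC 5′, −1.24 for Val-CAC 5′ and −1.39 for Val-TAC 5′ tRFs and −1.02, −1.18 and −1.12 for the other tRFs in the same order. The KO total had a log2 fold change of −0.99 (SE 0.27, edgeR adjusted p = 0.0121) and tRFs of all tRNAs one of −0.88. Without KO caput replicate 2 the count was 3. The interaction given for the cauda above is the test of the difference between the genotypes, and it did not pass.

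Sperm libraries varied widely within a genotype. Valine tRFs were at 7615, 3094, 4632 and 1646 CPM in WT and at 2369.7, 6303, 4691 and 2273 CPM in KO sperm. The groups overlapped throughout (log2 fold change −0.12, SE 0.49, edgeR adjusted p = 0.930). Val-AAC 5′ tRFs were at 1433, 547, 763 and 389 CPM in WT and at 476, 1603, 1169 and 514 CPM in KO libraries, with a log2 fold change of 0.26 (SE 0.51) whose sign turned with library totals, with factors from other RNAs and in DESeq2.

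Val-AAC 3′ tRFs were at 238, 179.8, 240.1 and 48.4 CPM in WT and at 92.5, 111, 107 and 93.7 CPM in KO sperm. Their 3 highest libraries were WT and the lowest was also WT (−0.80, SE 0.48, edgeR adjusted p = 0.490). Val-TAC other tRFs were at 52.3, 37.8, 42.8 and 5.42 CPM in WT and at 16.3, 25.7, 19.3 and 6.18 CPM in KO sperm, the same pattern with WT replicate 4 lowest (−1.03, SE 0.62, edgeR adjusted p = 0.498). No sum passed, with edgeR adjusted p from 0.490 to 0.908. Among single features edgeR called 0 of 31, against 0% of all features, with 2 lower at an unadjusted p under 0.05, while DESeq2 called the same 2, against 3.12% of all features. These were the 3′ tRFs of Val-AAC-3 and Val-CAC-3, named after their values were seen, which had nearly equal levels in every library. Val-AAC-3 was at 0.986, 10.1, 20.6 and 0.361 CPM in WT and at 0.284, 0.694, 0.557 and 0.343 CPM in KO sperm, with 2 WT libraries high and the groups overlapping. Of the 31 log2 fold changes 27 were negative, with a median of −0.37, beside −0.68 for the 533 tested tRF features of all tRNAs and 0.00 for all features.

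Sperm libraries came at 2 depths, 42764979 to 62128314 counts for WT replicate 1 and KO replicates 1 to 3 and 1134840 to 3618739 counts for the others. Within the deep libraries the log2 ratio of KO to WT was −0.77 for the valine total, and within the shallow ones −0.46, each with a single library on one side and no test. tRFs of all tRNAs together were at −0.88 and −0.54 there. All 9 sums were lower in KO within both depths, with log2 ratios of −0.40 and −0.14 for 5′ tRFs of Val-AAC and of −1.36 and −2.22 for other tRFs of Val-TAC. This split was chosen after the data were seen. Depth and genotype can therefore only partly be told apart in sperm. The valine share of all tRF counts was 9.36% ± 1.85 in WT and 10.9% ± 2.86 in KO sperm (SD, n = 4 each), with a 2-sided exact permutation p of 0.4 where the smallest possible is 0.0286, and as a share of all counts its log2 ratio had the opposite sign, at −0.47.

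In these counts, fragments outnumbered the uncut tRNA by far. The paper states that its sequencing method favours shorter RNAs and captures only part of the full-length tRNAs. A tRF read also counts on each isodecoder it matched, so the percentages are not the ratio of uncut to cut tRNA. Reads on full-length valine tRNAs amounted to 0.213%, 0.283% and 0.239% of valine tRF counts in WT and 0.807%, 0.951% and 0.194% in KO cauda tissue, with 2 KO libraries high and 1 inside the WT range. In caput fluid they amounted to 0.316%, 0.222% and 0.145% in WT and 0.585%, 0.468% and 0.622% in KO libraries. In corpus fluid they amounted to 0.00057%, 0.0321% and 0.0343% in WT and 0.0618%, 0.0758% and 0.0978% in KO libraries. KO was higher without overlap in both fluids, while cauda fluid overlapped at 0.00931% to 0.114% in WT and 0.0124% to 0.0913% in KO. The counts behind the corpus fluid values are small, 3 to 214 in WT and 113 to 201 in KO libraries, and no full-length valine tRNA passed both thresholds in any comparison of KO with WT.

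**Figure D5:**
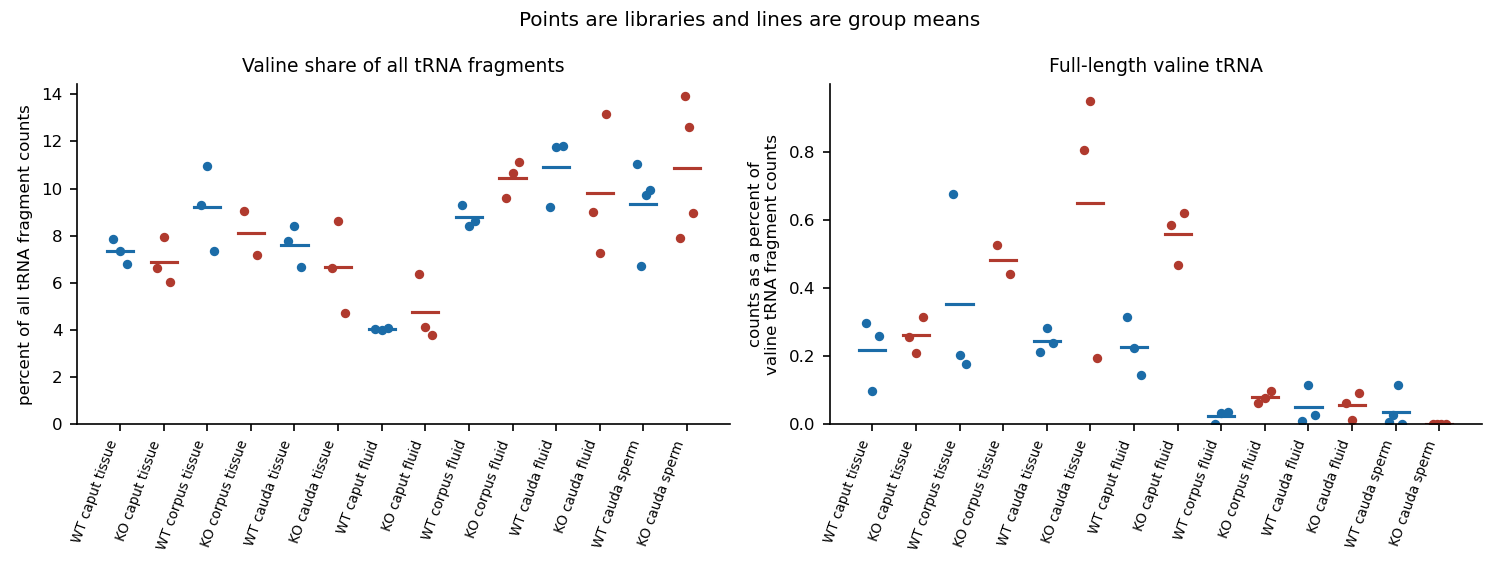
Left, valine tRFs as a percentage of all tRF counts in each library by group. Right, full-length valine tRNA counts as a percentage of valine tRF counts. WT is blue and KO is red, and KO lies above WT on the right in caput fluid (0.468% to 0.622% against 0.145% to 0.316%).

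Other anticodons whose totals followed those of valine most closely are given as a description, over libraries that share depth and protocol within a table. Outside valine, Val-AAC was most like Gly-ACC (Pearson r = 0.989 of log2 CPM) and Gln-TTG (0.838) over 17 tissue libraries, among 50 anticodons, and Val-CAC was most like the same pair. Over the 18 fluid libraries both were most like Gly-GCC (0.888 for Val-AAC and 0.884 for Val-CAC) and Trp-CCA. Val-TAC was most like Leu-TAA (0.929) in tissue, Glu-TTC (0.930) in fluid and Leu-CAA (0.986) in sperm.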

How the data were processed

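Small RNA counts of 17 tissue, 18 fluid and 8 sperm libraries were analysed. The authors trimmed reads with cutadapt, mapped them with bowtie2 to mm10, mature tRNAs and rRNAs in a modified tRAX pipeline (UMI-tools is also named in the submitters' processing notes), and deposited raw counts per feature, without normalization. Judged from near-equal counts, a read is counted on every best-matching feature. The deposited counts hold no columns of unmapped samples (0). Members, gene lists and tests were chosen with earlier results of these data known.

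Each table was filtered with filterByExpr (minimum count 10, minimum total 15), scaled by TMM and fitted in 1 edgeR 4.0.16 quasi-likelihood model over all its groups (R 4.3.3), with p-values adjusted by Benjamini-Hochberg over the whole table. 3488, 2023 and 2480 features were tested. Sums by anticodon and fragment type replaced the tRF features of every anticodon in a second fit, with 3032, 1611 and 2095 rows. Calls needed an adjusted p below 0.05 together with a log2 fold change beyond 1 in either direction, as in the study. Log2 CPM used a prior count of 2. Shares were compared with 2-sided exact permutation tests. Errors are SD between libraries. The paper calls the libraries of a group biological replicates, with mice pooled for fluid and sperm. It does not say which libraries of different segments came from the same mice. P-values measure the spread between libraries. The biological coefficient of variation was 0.412, 0.425 and 0.522, and all 46 replicate pairs differed beyond sampling noise (chi-square per degree of freedom 26.5 to 2925). The model was tested on simulated counts.

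Alternatives were DESeq2 1.42.0 and its size factors, library totals, TMM from other RNAs, no filter, a replicate block, the most counted isodecoder, and leaving out each library. The main fits used no block. The block fits took the replicate numbers in the titles to link the libraries of all groups of a table. In cauda tissue, deviations of same-numbered WT and KO libraries correlated at 0.272 to 0.596.

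The text names the 9 sums, 3 anticodon totals and the valine total in every comparison, the most counted features, up to 3 called features with the smallest p, full-length, antisense and locus features as counts and ranges, Gly-GCC and Glu-CTC 5′ tRFs, and the 2 most similar anticodons. Python 3.11.15, numpy 2.4.6, pandas 2.3.3 and matplotlib 3.10.9 were used.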

Additional observations from a re-analysis of the deposited data

Results flagged for a closer look

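The KO effect on Val-TAC other tRFs differed between cauda and corpus fluid by 1.86 on the log2 scale (SE 0.50, edgeR adjusted p = 0.0280 over all sums and features), tested as an interaction term. The effect was −1.79 in corpus fluid and 0.07 in cauda fluid. All 3 KO libraries were below all 3 WT libraries in the corpus, and KO libraries lay on both sides of the WT libraries in the cauda. The call was lost with library totals, without the filter on low counts and in 8 of 12 fits that left out 1 library. In 26 groups of 4 sperm libraries examined for a single value far from the others, 0 were found.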

How the results depend on the processing

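Of the single features in cauda tissue, 2 were called lower with DESeq2 size factors, 4 with library totals, 2 with TMM from other RNAs, 2 without the filter, 6 with the replicate block and 7 in DESeq2, where 0.975%, 0.803%, 1.03%, 0.739%, 3.56% and 2.17% of all features were called lower, against 0 as reported. In corpus fluid TMM from other RNAs, which moved the median of all features from 0.10 to −0.78, called 18 (26% of all features), and DESeq2 called 2 in sperm (3.12%). With TMM from other RNAs the total had log2 fold changes of 0.071 in corpus tissue, −0.063 in caput fluid and −0.74 in corpus fluid, the last also being −0.016 without the filter and −0.22 in DESeq2, which gave −1.17 in cauda tissue (adjusted p = 0.00338). Corpus fluid 5′ tRFs of Val-AAC, Val-CAC and Val-TAC were then at −0.48, −0.30 and −0.80, and Val-TAC at −0.069 without the filter and −0.19 in DESeq2. In sperm, Val-AAC 5′ tRFs were at −0.039 with library totals, −0.034 with TMM from other RNAs and −0.060 in DESeq2, Val-CAC 5′ tRFs at −0.015 with DESeq2 size factors, −0.12 with library totals, −0.12 with TMM from other RNAs and −0.15 in DESeq2, and Val-TAC 5′ tRFs at 0.12 with the replicate block. Within deep and shallow sperm libraries Val-AAC 5′ tRFs were at −0.40 and −0.14 and Val-CAC 5′ tRFs at −0.51 and −0.27. The total in WT corpus against caput fluid was 1.16, 1.43 and 1.01 with library totals, TMM from other RNAs and no filter. Sums called lower were 6 in cauda tissue in DESeq2 (1.5% of all), and in corpus fluid 3 with TMM from other RNAs, 2 without the filter and 2 in DESeq2 (17.7%, 2.25% and 4.02%). The interaction was called for 0 sums with library totals and 0 without the filter. As a share of all counts, valine tRFs had a log2 ratio of −0.47 in sperm. The causes of these moves were not tested.

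Leaving out 1 library gave 1 to 3 called features in corpus fluid (1 without WT replicate 1, KO replicate 1 or KO replicate 2), 0 to 1 in cauda fluid (KO replicate 3) and 0 to 2 in sperm (WT replicate 4). Totals ran from −0.23 to 0.027 in caput tissue, −0.51 to 0.056 in corpus tissue, −0.16 to 0.32 in corpus fluid, −0.63 to 0.095 in sperm and −0.18 to 0.13 for WT corpus against caput tissue. Corpus fluid 5′ tRFs of Val-TAC ran from −0.23 to 0.22 and its 3′ tRFs from −1.22 (called, without WT replicate 3) to −0.80. Sperm 5′ tRFs ran from −0.30 to 0.51 for Val-AAC, −0.41 to 0.45 for Val-CAC and −0.61 to 0.11 for Val-TAC. Called sums numbered 1 to 2 in corpus fluid, 3 to 6 for KO cauda against caput tissue, 3 to 6 for KO cauda against caput fluid (3 without KO caput replicate 2 or 3 or KO cauda replicate 3), 3 to 5 for WT corpus against caput fluid (3 without WT corpus replicate 1), 2 to 4 for KO corpus against caput fluid (4 without KO caput replicate 1) and 0 to 1 for the interaction. Log2 ratios of the valine share of tRF counts ran from −0.42 to 0.0072 in cauda tissue, −0.037 to 0.37 in caput fluid and −0.42 to 0.021 in cauda fluid. Same-numbered libraries of caput tissue correlated at 0.0288 to 0.723 (mean 0.423), not all above the 0.1 required for pairing, and those of corpus tissue, fluid and sperm at −0.227 to 0.314. The block changed no call of a valine sum or total in any comparison of KO with WT. The most counted isodecoder in place of the sums changed none of 72 results, which did not include the order of fragment types or anticodons within a group.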

Other observations

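Antisense reads on valine tRNAs were rare. They amounted to at most 0.245% of valine tRF counts in fluid and at most 0.126% in sperm. In corpus fluid they were at 0.0764%, 0.0348% and 0.0444% in WT and at 0.0137%, 0.00981% and 0.0230% in KO libraries, with all KO values under all WT values. The antisense features of Val-AAC-1, Val-CAC-1 and Val-CAC-2, which share reads, each had a log2 fold change of −1.72 there (SE 0.56, edgeR adjusted p 0.0345 to 0.0346). In that contrast 6.23% of all features were called lower. The counts are small, with antisense counts summed over features at 115 to 402 in WT and 25 to 40 in KO libraries. Counts on features named for single valine tRNA gene loci amounted to 0.265% to 2.86% of valine tRF counts in tissue and at most 0.0685% in fluid and sperm.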
